A study of Ictidomys tridecemlineatus with 10 samples.

Results

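The renin-angiotensin genes described here are the angiotensin II receptor gene Agtr1, the precursor gene Agt, the angiotensin-cleaving peptidase genes Enpep, Anpep and Lnpep, and the prorenin receptor gene Atp6ap2. They were chosen by symbol, with no cut on a measured value, although earlier results of these data were known. Of the 7 symbols in the list, 6 had a row among the 25964 genes of the deposited table, and Ace was not analysed here. Thirteen-lined ground squirrels (Ictidomys tridecemlineatus) gave the RNA, taken from subfornical organs cut by hand out of brain slices, with 5 libraries from Active animals, which were not hibernating, and 5 from animals in interbout arousal (IBA), a hibernating state. In an arousal a hibernating animal rewarms for a time before it enters torpor again. The labels gave no age, sex, treatment or pooling, and the series' design text called the libraries biological replicates. The series title links suppressed neurons of such organs to months of survival without water, and the question here is whether transcripts of the angiotensin pathway differed between the states.

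In the renin-angiotensin system, angiotensinogen, the product of Agt, is cut in steps to angiotensin II. Angiotensin II acts on the AT1 receptor encoded by Agtr1, and aminopeptidases then shorten it to angiotensins III and IV. The subfornical organ lies outside the blood-brain barrier, and its AT1-bearing neurons respond to circulating angiotensin II and drive drinking. In other mammals brain angiotensinogen is made mainly by astrocytes. No sequence of these transcripts or proteins is shown, since none was used here.

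None of the 6 genes passed the test between the states. Values are normalised CPM, the authors' read counts scaled for library size, and differences are IBA minus Active on the log2(CPM + 0.5) scale. The test was limma over the 15445 genes that averaged 1 CPM or more, with Benjamini-Hochberg adjustment over all of them and a threshold of 0.05. All 6 genes passed the filter on low values. limma called 0 of the 6, where it called 0.401% of all genes tested, and edgeR and DESeq2 on the recovered reads also called 0 of the 6, where they called 0.369% and 9.89% of all genes. An unadjusted p under 0.05 was found for 1 of the 6 in limma, Atp6ap2, against 23.9% of all genes tested, and for 1 in edgeR and 1 in DESeq2. The difference was positive for 5 of the 6, with a median of 0.18, and for 54.1% of all genes tested, with a median of 0.03.

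**Figure D1:**
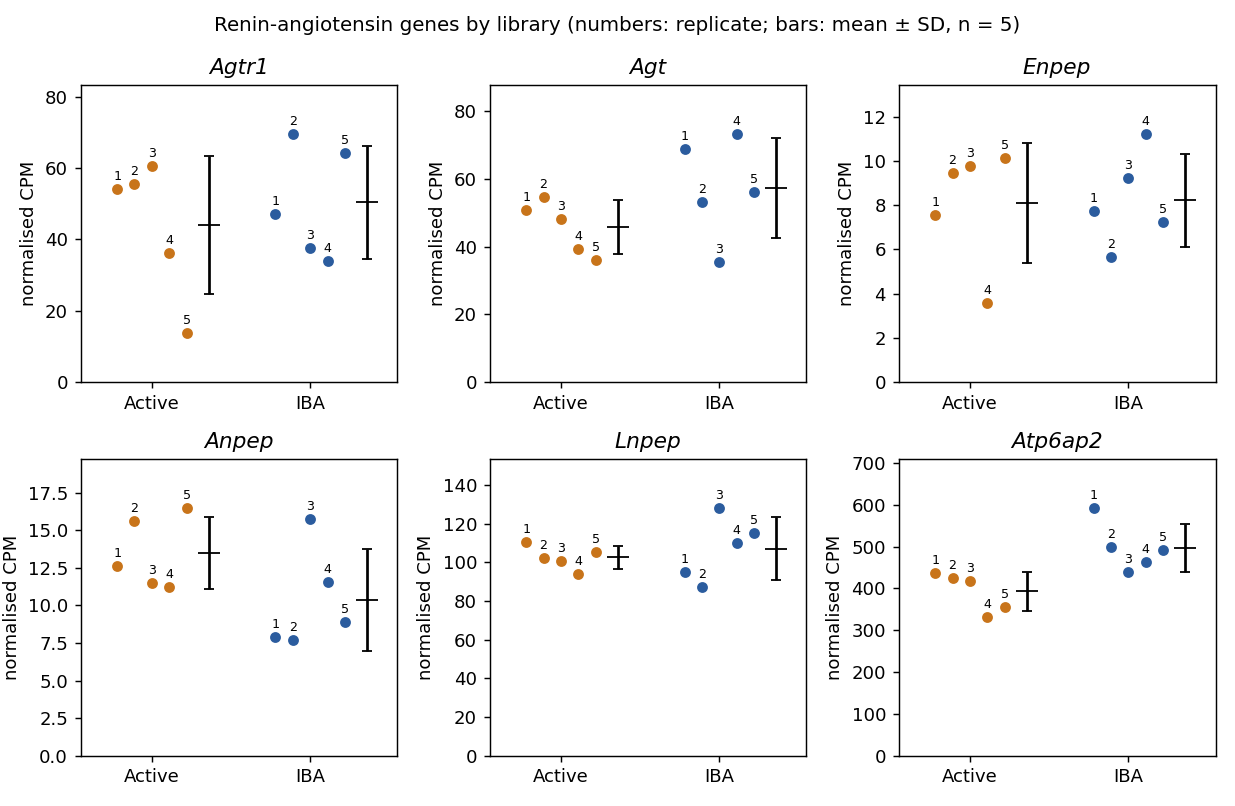
Normalised CPM (y axis, from 0) of the 6 renin-angiotensin genes in each of the 5 Active (orange) and 5 IBA (blue) libraries, numbered by replicate, with the mean and SD of each state as bars. The Atp6ap2 values do not overlap between states, while the other 5 genes overlap, and Agtr1 is lowest in Active replicate 5 at 13.6 CPM.

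Agt, the angiotensinogen gene, was spread more widely in IBA than in Active libraries. It was at 50.7, 54.8, 48.2, 39.3 and 36.1 CPM in Active replicates 1 to 5 and at 68.8, 53.1, 35.4, 73.2 and 56.2 CPM in IBA replicates 1 to 5. IBA replicates 1, 4 and 5 lay above every Active library and IBA replicate 3 lay below them all, so the states overlapped. The Active mean was 45.8 ± 7.86 CPM and the IBA mean 57.3 ± 14.8 CPM (SD, n = 5 each). The difference was 0.30 in log2, with a 95% interval of -0.11 to 0.70 and an adjusted p of 0.358 in limma. It remained positive in all 22 alternative settings, at 0.12 to 0.46, and was 0.12 without Active replicates 4 and 5, the Active libraries with the least Agt.

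Markers of astrocytes, the cells known to make angiotensinogen, had a median log2 difference of -0.05, with 4 of 9 tested markers positive. By limma 0 of these markers were called, and 2 were at an unadjusted p under 0.05, against 23.9% of all genes tested. Their score, the mean deviation of a library's log2 values from each marker's mean over the 10 libraries, was -0.11 to 0.24 in Active libraries and -0.30 to 0.22 in IBA libraries. Over the 10 libraries Agt and this score had r = 0.35 (permutation p = 0.315, adjusted p = 0.729) and rho = 0.38 (permutation p = 0.276, adjusted p = 0.736), adjusted over the 60 pairs of 6 genes and 10 marker scores. That r was 0.29 without Active replicate 5 and IBA replicate 3, the libraries farthest from the median of Agt, and 0.78 after the state means were removed. The relation over the 10 libraries did not pass the correction, and the r of 0.78 was not tested. In bulk tissue, fewer cells of a type and less RNA per cell cannot be told apart, and the part of astrocyte content in the Agt values was not tested.

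Agtr1, the angiotensin II receptor gene through which the organ senses the hormone, varied more between libraries than between states. Active replicates 1 to 5 held 54.2, 55.6, 60.7, 36.1 and 13.6 CPM. IBA replicates 1 to 5 held 47.1, 69.5, 37.5, 34.0 and 64.2 CPM. Active replicate 5 stood lowest of the 10 libraries, the other 4 Active libraries lay inside the IBA range, and 2 IBA libraries exceeded every Active library. The Active mean was 44.0 ± 19.4 CPM and the IBA mean 50.4 ± 15.8 CPM (SD, n = 5 each). The log2 difference was 0.31 (SE 0.36, 95% interval -0.48 to 1.10, adjusted p = 0.637 in limma). It was 0.17 in edgeR, 0.17 in DESeq2 and 0.17 with array weights, and the authors' deposited table gave a log2 fold change of 0.20 with an FDR of 0.917. The limma interval spans 0.717-fold to 2.14-fold of the Active level, so it includes a level in IBA that is 2-fold higher.

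Counting error was a small part of this spread. The low value of Active replicate 5 rested on 441 reads, with an exact Poisson 95% interval of 12.4 to 14.98 CPM that covers counting error only. The next lowest libraries, IBA replicate 4 and Active replicate 4, rested on 837 and 819 reads, with intervals of 31.7 to 36.4 and 33.7 to 38.6 CPM. The within-state SD of Agtr1 was 0.698 on the log2 scale, larger than that of 96.0% of all genes tested, whose median was 0.254. The highest Active value was 4.45 times the lowest, and the highest IBA value was 2.05 times the lowest. Without Active replicate 5 the log2 difference was -0.06, and with Active replicate 4 omitted too it was -0.22. The direction of the Agtr1 difference thus rested on Active replicate 5.

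Of 10 genes listed here as markers of the organ's neurons, other than Agtr1, 4 were at their lowest in Active replicate 5, 2 were at their highest there and 4 lay between. Etv1, a transcription factor of the AT1-bearing neurons in mice, was at 87.8 CPM there, against 112.2 to 158.4 CPM in the other Active and 116.04 to 129.9 CPM in the IBA libraries. Slc17a6, the vesicular glutamate transporter gene of excitatory neurons, was at 21.7 CPM there, against 32.4 to 62.8 and 26.0 to 92.6 CPM. Adcyap1, the gene of the peptide PACAP, and Pdyn, the prodynorphin gene, were also at their lowest in that library. Calcr, the calcitonin receptor gene, was at its highest there, at 5.63 CPM against 1.01 to 3.74 CPM in the other Active and 0.690 to 2.66 CPM in the IBA libraries. The gene for neuronal nitric oxide synthase, Nos1, was also at its highest, at 3.37 CPM against 2.35 to 3.33 and 2.02 to 3.20 CPM. Foxp2, a transcription factor gene, was at 15.5 CPM, above the other Active libraries at 6.83 to 10.2 CPM and inside the IBA range of 6.03 to 18.3 CPM. Counted from the lowest of the 10 libraries, Active replicate 5 ranked 5 for the sodium channel gene Scn7a and 8 for Rxfp1 and Lmx1b. The Agtr1 value divided by the Etv1 value was 0.155 in Active replicate 5, 0.322 to 0.462 in the other Active libraries and 0.293 to 0.551 in the IBA libraries. Agtr1 was therefore lowest in that library also relative to Etv1, but it was not lowest there relative to Slc17a6. IBA replicate 1 held 47.1 CPM of Agtr1 beside 92.6 CPM of Slc17a6. That ratio was below the one of 13.6 CPM beside 21.7 CPM in Active replicate 5.

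**Figure D2:**
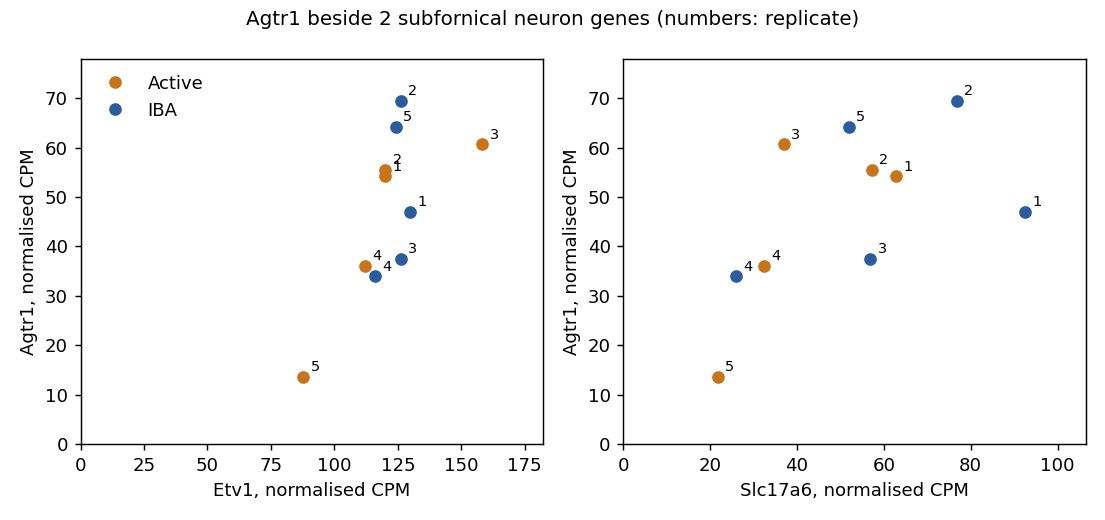
Normalised CPM of Agtr1 (y axis) against that of Etv1 (left) and Slc17a6 (right) in the 10 libraries, coloured by state and numbered by replicate. Active replicate 5 sits at the lower left of both panels, at 13.6 CPM of Agtr1 beside 87.8 CPM of Etv1 and 21.7 CPM of Slc17a6.

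The list of 10 subfornical neuron markers had 8 genes above the filter, 0 called by limma and a median log2 difference of 0.17. Of the 8, 1 was at an unadjusted p under 0.05 in limma, against 23.9% of all genes tested. It was Scn7a, with a log2 difference of 0.60 (unadjusted p = 0.0109, adjusted p = 0.112 in limma). Whether each gene of the list is confined to neurons was not tested. Rxfp1, the relaxin receptor gene, and Lmx1b, a transcription factor gene, were under the filter, at 0 to 0.645 and 0.0294 to 1.23 CPM. The score of this list was -0.16 in Active replicate 5 and lowest, -0.38, in IBA replicate 4. General neuron markers scored -0.36 in IBA replicate 4, -0.25 in Active replicate 4 and -0.21 in Active replicate 5, against -0.10 to 0.24 in the other libraries. These were also the 3 libraries with the least Agtr1. The list had a median log2 difference of 0.22 with 0 of 8 called by limma (1 at an unadjusted p under 0.05). Over the 10 libraries Agtr1 and the general neuron score had Pearson's r = 0.68 (permutation p = 0.0194, adjusted p = 0.424) and Spearman's rho = 0.79 (permutation p = 0.00875, adjusted p = 0.470), adjusted over the same 60 pairs. Leaving out Active replicate 5 and IBA replicate 4, the libraries farthest from the median of Agtr1, gave r = 0.69, and removing the state means gave 0.65. Agtr1 and the subfornical neuron score had r = 0.52 (permutation p = 0.124, adjusted p = 0.526) and rho = 0.52 (permutation p = 0.133, adjusted p = 0.617). That r was 0.28 without the same libraries and 0.48 after the state means were removed. Neither relation passed the correction, and the part of neuron content in the Agtr1 values was not tested.

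The genes whose log2 values followed Agtr1 most closely over the 10 libraries were Npepps, Slc25a14 and Ociad1, out of 13163 tested genes with a symbol. Npepps, a cytosolic puromycin-sensitive aminopeptidase gene, had Pearson's r = 0.95 with Agtr1, and r = 0.90 without Active replicate 5. Slc25a14, a mitochondrial carrier gene, had r = 0.94 and 0.84, and Ociad1 had 0.93 and 0.76. Etv1 ranked 117 in this order with r = 0.81. These are the highest of many correlations over 10 shared libraries and are given as a description. For Agt the closest genes were Med20, a Mediator subunit gene, at r = 0.97, Irf3, an interferon regulatory factor gene, at 0.95, and Fam3a at 0.94.

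Enpep encodes aminopeptidase A, which removes the first residue of angiotensin II to give angiotensin III. It was at 7.54, 9.47, 9.79, 3.57 and 10.2 CPM in Active replicates 1 to 5 and at 7.76, 5.67, 9.24, 11.2 and 7.22 CPM in IBA replicates 1 to 5. Active replicate 4 was lowest and IBA replicate 4 highest, and 4 of 5 libraries of each state lay inside the range of the other. The means were 8.10 ± 2.73 and 8.22 ± 2.10 CPM (SD, n = 5 each), with a log2 difference of 0.07, a 95% interval of -0.52 to 0.65 and an adjusted p of 0.900 in limma. The sign changed in 6 of 22 alternative settings, among them the omission of Active replicate 4, which gave -0.18. That library also had the highest choroid plexus score, 2.85 against -1.20 to 0.79 in the others, with Ttr, the transthyretin gene, reaching 10024 CPM. Enpep and the choroid plexus score had r = -0.69 (permutation p = 0.0482, adjusted p = 0.424) and rho = -0.38 (permutation p = 0.279, adjusted p = 0.736). That r was 0.06 without Active replicate 4 and IBA replicate 2, and -0.69 after the state means were removed. The relation did not pass the correction. The part of choroid plexus tissue in the Enpep value of Active replicate 4 was not tested. The genes closest to Enpep over the 10 libraries were Il10ra, an interleukin receptor gene, at r = 0.96, and Paaf1 and Znf397, both at 0.90.

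Anpep encodes aminopeptidase N, which trims angiotensin III to angiotensin IV, and it was the member with a lower mean in IBA. It was at 12.6, 15.6, 11.5, 11.2 and 16.5 CPM in Active replicates 1 to 5 and at 7.91, 7.71, 15.8, 11.5 and 8.87 CPM in IBA replicates 1 to 5. IBA replicates 1, 2 and 5 lay below every Active library, while IBA replicates 3 and 4 lay inside the Active range. The means were 13.5 ± 2.41 and 10.4 ± 3.38 CPM (SD, n = 5 each). The log2 difference was -0.40, with a 95% interval of -0.84 to 0.04 and an adjusted p of 0.247 in limma, and it was negative in all 22 alternative settings, from -0.56 to -0.31. The lowest of these, -0.56, came without IBA replicate 3.

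Both Enpep and Anpep are known from pericytes of brain vessels, and no marker of those cells passed the test. The score of pericyte and smooth muscle markers was 0.03 to 0.51 in Active and -0.34 to 0.03 in IBA libraries. Of 9 tested markers 7 were negative, with a median of -0.29, 0 called by limma (lowest adjusted p 0.0756) and 4 at an unadjusted p under 0.05. Over all genes tested, limma called 0.401%, and 23.9% were at an unadjusted p under 0.05. Kcnj8, a potassium channel gene of pericytes, was low in every library, at 0.323 to 1.94 CPM, and Pdgfrb, a growth factor receptor gene of pericytes, was at 37.9 to 68.7 CPM. Anpep and this score had r = 0.68 (permutation p = 0.0317, adjusted p = 0.424) and rho = 0.61 (permutation p = 0.0667, adjusted p = 0.531). That r was 0.44 without IBA replicates 1 and 2, the libraries farthest from the median of Anpep, and 0.49 after the state means were removed. Enpep and the score had r = 0.23 (permutation p = 0.539, adjusted p = 0.866) and rho = 0.38 (permutation p = 0.280, adjusted p = 0.736). That r was 0.27 without Active replicate 4 and IBA replicate 2, the libraries farthest from the median of Enpep, and 0.45 after the state means were removed. The highest r of the 60 pairs was that of Enpep with the fibroblast and leptomeninges score. It was 0.75 (permutation p = 0.0120, adjusted p = 0.424), with rho = 0.59 (permutation p = 0.0812, adjusted p = 0.531). That r was 0.47 without Active replicate 4 and IBA replicate 2, and 0.82 after the state means were removed. None of these relations passed the correction, and the part of pericyte or fibroblast content in these values was not tested.

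Lnpep encodes an insulin-regulated aminopeptidase that binds angiotensin IV and cleaves oxytocin and vasopressin. It was at 110.7, 102.1, 100.8, 94.1 and 105.4 CPM in Active replicates 1 to 5 and at 94.9, 87.2, 128.1, 109.99 and 115.4 CPM in IBA replicates 1 to 5. All 5 Active values lay inside the IBA range, and the Active libraries were among the least spread, with an SD of 0.0861 on the log2 scale that was larger than that of 3.44% of genes tested. The means were 102.6 ± 6.12 and 107.1 ± 16.3 CPM (SD, n = 5 each), with a log2 difference of 0.05, a 95% interval of -0.19 to 0.29 and an adjusted p of 0.814 in limma. The interval excluded changes beyond 0.877-fold and 1.22-fold, the narrowest span of the 6 genes.

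Atp6ap2 encodes the prorenin receptor, which is also an accessory subunit of the vacuolar proton pump, and its values were the ones that separated the states. It was at 437.6, 424.5, 418.3, 331.5 and 355.2 CPM in Active replicates 1 to 5 and at 591.9, 499.3, 438.3, 463.2 and 490.7 CPM in IBA replicates 1 to 5. Every IBA library exceeded every Active library, but the lowest IBA value, in replicate 3, and the highest Active value, in replicate 1, lay close together. Among all genes tested, 3.59% were higher in IBA with no overlap, and 6.38% had no overlap in either direction. The means were 393.4 ± 47.0 and 496.7 ± 58.4 CPM (SD, n = 5 each).

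The log2 difference of Atp6ap2 was 0.34 (SE 0.11, 95% interval 0.09 to 0.59, unadjusted p = 0.0119), a ratio of 1.26, and it did not pass the correction (adjusted p = 0.114 in limma). Over 22 alternative settings it ranged from 0.21 to 0.38 and its adjusted p from 0.0576 in DESeq2 to 0.415 with Active replicates 4 and 5 omitted. After median-of-ratios scaling the states overlapped narrowly, with 4 of 5 IBA libraries above every Active library, and with equal totals in all libraries they did not overlap. The authors' deposited table gave Atp6ap2 a log2 fold change of 0.34 in the same direction, with p = 0.0203 and FDR 0.222, from these same libraries. The Active libraries with the least Atp6ap2 were replicates 4 and 5, which were also the lowest Active libraries for Agtr1 and Agt. Atp6ap2 and the general neuron score had r = 0.64 (permutation p = 0.0472, adjusted p = 0.424). That r was 0.63 after the state means were removed. With ependyma r was -0.66 (permutation p = 0.0366, adjusted p = 0.424), and -0.57 after that removal. With pericytes and smooth muscle it was -0.63 (permutation p = 0.0495, adjusted p = 0.424), and -0.13 after it. None passed the correction over the 60 pairs, and the part of cell content in the Atp6ap2 values was not tested.

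**Figure D3:**
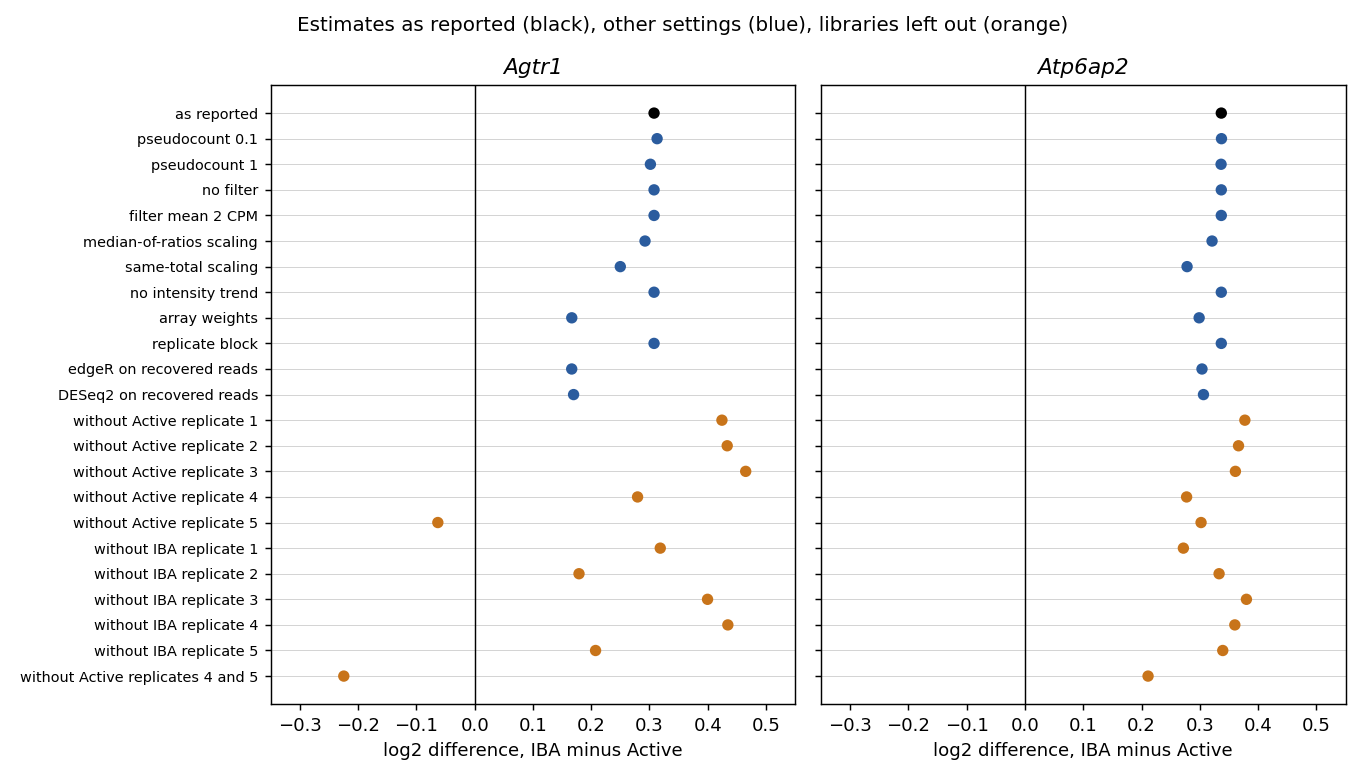
Log2 difference, IBA minus Active (x axis), of Agtr1 (left) and Atp6ap2 (right) as reported (black), under other settings (blue) and with libraries left out (orange). The Agtr1 value turns negative when Active replicate 5 is omitted (-0.06), also together with Active replicate 4 (-0.22), while Atp6ap2 stays between 0.21 and 0.38.

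The 6 genes did not show a shared pattern over libraries that passed correction. Among their 15 pairs Pearson's r ran from -0.65 for Anpep with Atp6ap2 to 0.73 for Agt with Atp6ap2. For Agt and Atp6ap2 the permutation p was 0.0151 (adjusted p = 0.226), and Spearman's rho was 0.65 (permutation p = 0.0490, adjusted p = 0.269). The value of r was 0.79 without Active replicate 5 and IBA replicate 3, and 0.68 after the state means were removed. Agtr1 and Agt had r = 0.46 (permutation p = 0.186, adjusted p = 0.335) and rho = 0.25 (permutation p = 0.493, adjusted p = 0.740). That r was 0.60 without Active replicate 5 and IBA replicate 4. No pair passed after adjustment over the 15.

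**Figure D4:**
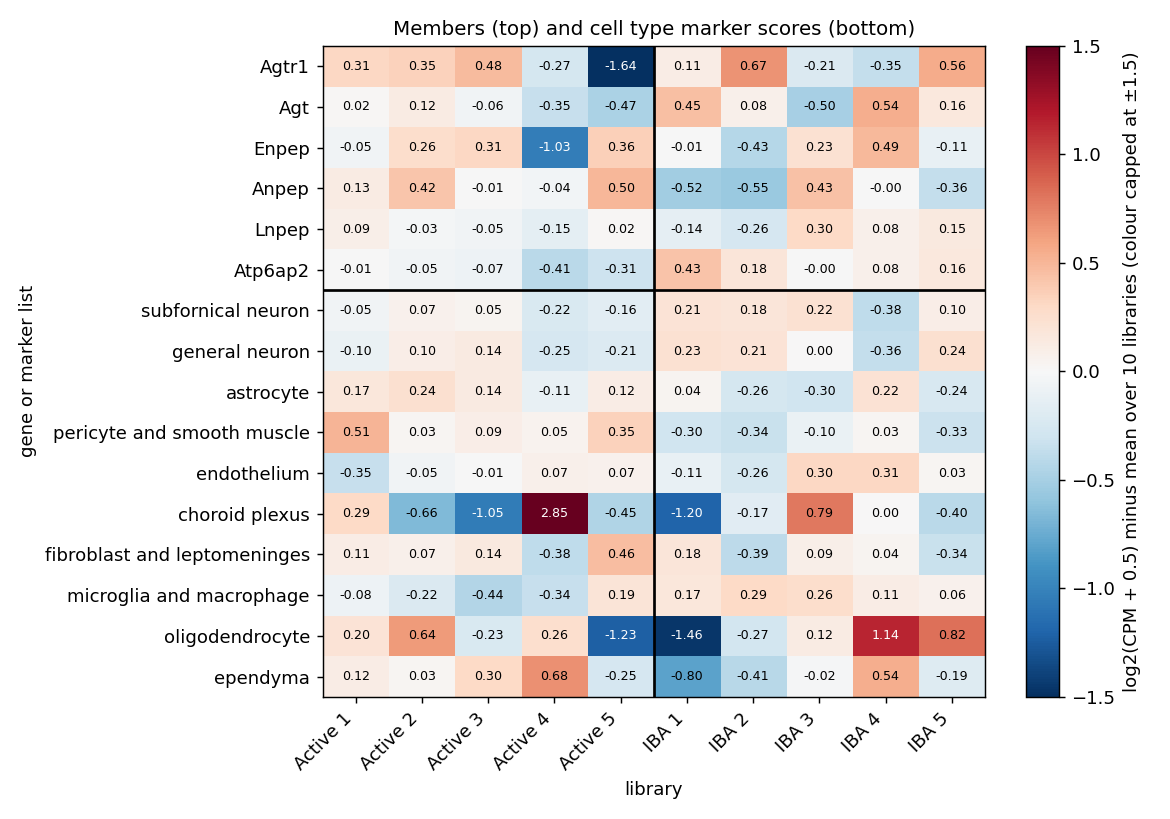
Deviation of log2(CPM + 0.5) from the mean over the 10 libraries for the 6 genes (top) and mean deviation of the markers of 10 cell type lists (bottom), by library (columns), with red above and blue below the mean. Agtr1 in Active replicate 5 lies 1.64 below its mean, Enpep in Active replicate 4 lies 1.03 below, and Active replicate 4 has the highest choroid plexus score, 2.85.

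Of the other marker lists, microglia and macrophage markers were called in part, with a median of 0.38. By limma 2 of 9 tested markers were called higher in IBA, and 5 were at an unadjusted p under 0.05. Among all genes tested, limma called 0.401%, and 23.9% were at an unadjusted p under 0.05. The score of the microglia and macrophage markers was -0.44 to 0.19 in Active and 0.06 to 0.29 in IBA libraries. Median log2 differences were 0.12 for endothelium, -0.25 for choroid plexus, -0.11 for fibroblasts and leptomeninges, 0.17 for oligodendrocytes and -0.27 for ependyma. limma called 0 markers in these 5 lists, with 2, 0, 1, 0 and 1 at an unadjusted p under 0.05. Total reads were 20993093 to 30713168 per Active and 24195342 to 35382203 per IBA library.

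Genes elsewhere in the renin-angiotensin system were examined as a list of 18, of which 14 had a row and 10 were above the filter. limma called 0 of the 10, with 2 at an unadjusted p under 0.05, and edgeR called 0 and DESeq2 called 1. For comparison, DESeq2 called 9.89% of the 15445 genes, and 23.9% of them were below the same unadjusted limit in limma. The median log2 difference of the 10 genes was -0.12, with 4 positive and 6 negative. The cathepsin A gene, Ctsa, a lysosomal carboxypeptidase, had the largest difference, with 126.2, 131.1, 95.4, 143.1 and 211.9 CPM in Active replicates 1 to 5 and 84.7, 99.0, 109.4, 67.5 and 80.3 CPM in IBA replicates 1 to 5. The states overlapped through Active replicate 3, which lay below 2 IBA libraries. Its log2 difference was -0.65 (95% interval -1.07 to -0.24, adjusted p = 0.0891 in limma), from -0.78 to -0.42 over 22 alternative settings, with an adjusted p of 0.0811 in edgeR and 0.0137 in DESeq2. The range of its adjusted p over those settings was 0.0137 to 0.301. The authors' deposited table gave Ctsa an FDR of 0.159.

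The angiotensin receptor genes Agtr2 and Mas1 and the related receptor gene Mrgprd were at or near the limit of detection. A count of 0 allows a level of up to 3 reads, which was worth 0.0882 to 0.132 CPM depending on the library. Agtr2, the gene of the second angiotensin II receptor, had 15 reads over the Active and 3 over the IBA libraries. Mas1, a receptor gene for a shortened angiotensin, was matched through its RefSeq gene identifier and had 8 reads in Active and 0 in IBA libraries. Mrgprd had 6 reads in each state, and Klk1, the tissue kallikrein gene, had 36 and 24. Two-sided exact permutation tests over all assignments of the libraries to 5 against 5, adjusted over these 4 genes, gave p = 0.111 for Agtr2, 0.111 for Mas1, 1 for Mrgprd and 0.434 for Klk1, where the smallest unadjusted p possible was 0.00794. No fold is given for Agtr2, Mas1 or Mrgprd, since their means in both states were under 0.132 CPM. Log2 differences of Mrgprd in the last section are given only for their change of sign, and rest on 6 reads in each state.

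Mme and Cpa3, which encode enzymes that can cleave angiotensins, were measured at low levels. Mme, the neprilysin gene, was at 1.89 ± 0.472 and 2.05 ± 1.37 CPM (SD, n = 5 each), a difference of -0.05. The carboxypeptidase gene Cpa3, known from mast cells, ran from 0.279 to 2.29 CPM in Active libraries and from 0.162 to 4.76 CPM in IBA libraries, a difference of -0.39 (95% interval 0.355-fold to 1.64-fold). With each library left out in turn, the difference ran from -0.88 without IBA replicate 3, the library with the most Cpa3, to -0.13 without IBA replicate 4, and edgeR gave -0.12. The intervals of both genes included a 1.5-fold change in either direction.

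Intracellular and lysosomal peptidases gave narrower intervals. Rnpep, the aminopeptidase B gene, ran from 34.5 to 59.2 CPM in Active libraries and from 25.8 to 40.8 CPM in IBA libraries, and its log2 difference was -0.35, with a 95% interval of -0.70 to -0.0035 and an adjusted p of 0.206 in limma. Thop1 and Prep, the genes of thimet oligopeptidase and prolyl oligopeptidase, had differences of -0.24 and -0.18. Nln, the neurolysin gene, Dpp3, a dipeptidyl peptidase gene, and Prcp, the lysosomal prolylcarboxypeptidase gene, had differences of 0.04, 0.10 and 0.24. Agtrap, which encodes a protein that binds the AT1 receptor, was at 49.4 ± 7.58 and 52.3 ± 5.02 CPM (SD, n = 5 each), a difference of 0.09. The adjusted p of these 6 genes ranged from 0.308 for Thop1 to 0.900 for Nln in limma.

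**Figure D5:**
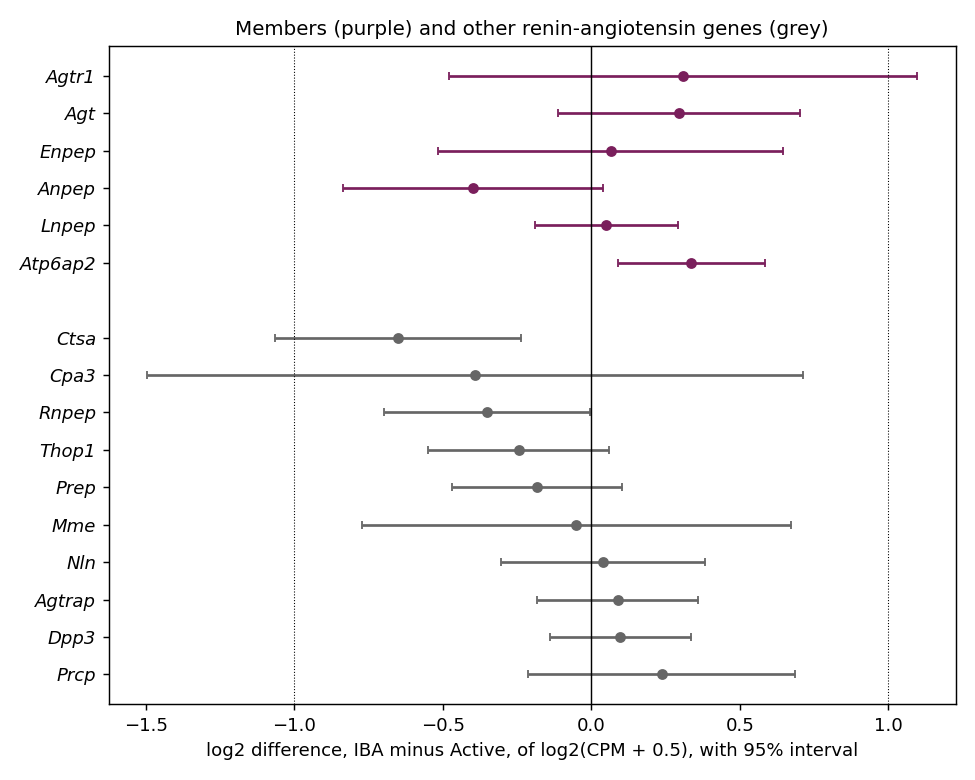
Log2 difference, IBA minus Active (x axis), with its 95% interval from limma for the 6 renin-angiotensin genes of the list (purple) and the 10 other genes of the system above the filter (grey); dotted lines mark a 2-fold change. The intervals of Atp6ap2, Ctsa and Rnpep lie to one side of 0, but none of these genes passed the adjustment over 15445 genes.

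Genes that couple the AT1 receptor to the cell were examined as a list of 23, all above the filter. limma called 0, with 3 at an unadjusted p under 0.05, and edgeR and DESeq2 called 0, with 2 and 4 at an unadjusted p under 0.05. Over all 15445 genes tested, 3685 were at an unadjusted p under 0.05 in limma (23.9%), 3705 in edgeR and 3975 in DESeq2. The median log2 difference of the 23 genes was -0.12, with 8 positive and 15 negative. The largest negative differences were those of Plcb3, a phospholipase C gene, at -0.66 (28.9 ± 11.8 CPM in Active against 17.6 ± 5.15 CPM in IBA, SD, n = 5 each), and Grk3, a receptor kinase gene, at -0.64. The largest positive ones were those of Gna12, a G protein subunit gene, at 0.41 and Jak2, a tyrosine kinase gene, at 0.30. Their adjusted p in limma was 0.165, 0.206, 0.205 and 0.233, in that order. Gnaq, the main G protein subunit gene of AT1 signalling, had a difference of 0.19 (95% interval -0.02 to 0.40), with an adjusted p of 0.252 in limma, and was named after its value was seen.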

How the data were processed

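Per the submitters' processing notes, reads went through Trimmomatic 0.39, STAR 2.7.7a and featureCounts (Subread 2.0.1), and edgeR 3.38.4 was run in R 4.2.1. Build, annotation and strand setting were not stated in any source used here. Overlapping, antisense or near-identical genes may share reads. Per the file headers, the deposited value of a library is its normalised CPM, a signal whose column sums differ because of scaling by the authors. Further deposited columns hold the authors' log2 fold change (Active minus IBA, turned here to IBA minus Active), average log2 CPM, F score, p-value and FDR.

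All CPM values above 0 were whole multiples of 1 read within 0.01 of a read (100% in every library), so whole reads were recovered. No batch was named in the labels. Groups and replicate numbers came from the titles. Nothing named separate animals beyond the design text, so p-values measure the spread between these libraries.

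The limma test (version 3.58.1, R 4.3.3) used log2(CPM + 0.5), an intensity trend and no covariate, with 2-sided p-values. Alternatives were other pseudocounts, filters, scalings, weights, pairing and count models (edgeR 4.0.16, DESeq2 1.42.0 on recovered reads), and libraries left out. Genes under the filter had exact permutation tests. Correlations had permutation tests with 100000 resamples and were chosen after the data were seen. Values of r with libraries omitted or with the state means removed had no test. Named genes were the 6 members, the listed genes of the system with a row, the 2 largest rises and falls of the coupling list and the 3 genes closest to Agtr1, Agt and Enpep. Gene lists, 2 of pathways and 10 of markers, were matched by symbol, and Mas1, Gja1 and Folr1 through the RefSeq gene identifiers of assembly mIctTri1.hap1. No coordinates are given. Some genes of the pathway list are not reported here. The members and lists were chosen with earlier results of these data known. On simulated data for IBA against Active with 15445 genes, 17.9% of 1.5-fold changes, 55.2% of 2-fold changes and 97.0% of 4-fold changes were recovered, with 11 false calls, and with no change simulated there was 1 call. Reads of each gene were drawn independently, so deviations shared between genes were not simulated. The shares are over genes drawn at random, not for the members. Agtr1 had a within-state SD larger than that of 96.0% of genes tested.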

Additional observations from a re-analysis of the deposited data

Results flagged for a closer look

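In the 39 groups of 5 libraries formed by the 6 members and the other renin-angiotensin genes, 4 held a library far from the others, and chance flags about 1 in 20 groups. None of the 4 was in a group of the 6 members. Cpa3, the mast cell carboxypeptidase gene, was at 4.76 CPM in IBA replicate 3, with the next IBA library at 0.790 CPM. Dpp3 was at 93.0 CPM in IBA replicate 2, with the other IBA libraries at 78.2 to 80.6 CPM. Agtrap was at 36.3 CPM in Active replicate 3, with the other Active libraries at 50.2 to 55.4 CPM. Mrgprd was at 0.162 CPM in IBA replicate 4, a value of 4 reads, with the next at 0.0399 CPM.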

How the results depend on the processing

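No member was called in any of the 22 alternative settings, and the differences of Agt, Anpep and Atp6ap2 kept their direction in all of them. Over all genes, 62 were called, against 6 with no filter, 121 with array weights, 1527 with DESeq2, 0 without Active replicates 4 and 5 (2173 at an unadjusted p under 0.05 in limma), and 4 to 245 with each library left out. With the replicate number as a block, limma called 231 genes and 0 members, with adjusted p = 0.0987 for Atp6ap2. Same-numbered libraries correlated by -0.17 to 0.20 in their deviations, with 3 of 5 pairs over 0.1. The numbers were taken to pair libraries only if all 5 pairs were over 0.1, so they were not, although 5 of 10 libraries correlated best with their own number. Leaving out each library gave -0.063 to 0.47 for Agtr1, -0.18 to 0.18 for Enpep, -0.017 to 0.12 for Lnpep, -0.31 to 0.22 for Mme, -0.051 to 0.17 for Nln, -0.017 to 0.13 for Agtrap and -0.064 to 0.041 for Mrgprd. Without Active replicates 4 and 5, Agtr1 was at -0.22, Enpep at -0.14 and Mme at 0.13. Array weights gave -0.069 for Enpep. edgeR gave -0.011 for Enpep, 0.079 for Mme and -0.012 for Nln, and DESeq2 gave -0.0090 for Enpep, 0.082 for Mme and -0.0090 for Nln. With equal library totals, Lnpep was at -0.0082 and Nln at -0.019, and a pseudocount of 0.1 gave -0.0012 for Mrgprd. DESeq2 called 1 other renin-angiotensin gene, Ctsa. Without Active replicate 2 the exact tests of Agtr2 and Mas1 passed (adjusted p = 0.0317 for both), on a few reads each. The cause of these changes was not tested. With 5 libraries per state the 95% interval of Agtr1 was the widest of the 6 members.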
